A study of Mus musculus with 2 samples.

Results

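The accessible chromatin nearest 7 transcription factor genes is described here, 6 members of the Rfx family (Rfx1, Rfx2, Rfx3, Rfx4, Rfx5 and Rfx7) and the forkhead gene Foxj1. An interval was counted as a member if the closest transcription start site (TSS) of any protein-coding gene belonged to one of these genes, a rule that used no measured value, although the 7 genes were picked with earlier results of these data known. Of 119502 intervals, 72 were members, 7 of them lying over the TSS of their own gene and 65 lying elsewhere (distal). The intervals were consensus peaks of 5 libraries, of which 2 are described here. An interval may thus owe its call to the other libraries, and the lowest raw count in a member interval was 8. Accessibility was read by ATAC-seq, a method that uses the Tn5 transposase to cut and tag DNA not covered by nucleosomes, so that an open interval gains counts.

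Live cells carrying mKate2, a red fluorescent protein expressed together with Olig2, were sorted from the Olig2-mKate2 mouse embryonic stem (ES) cell line, which the labels call neural progenitors (NPs). All samples had the same culture, to day 5, with 100 nM retinoic acid (RA) and 100 nM SAG, an agonist of Sonic hedgehog (Shh) signalling, from day 3. The design held 1 group, LIVE_ATAC, with 2 replicates, which served in the study as a reference for accessibility measured in fixed cells, and no comparison of conditions was possible. The reporter line is 1 engineered line, and its fluorescence outlasts Olig2, so that the sorted cells can include newly born motor neurons. According to the paper, they also include some cells positive for both OLIG2 and NKX2.2. Nothing in the labels says whether the replicates came from separate cultures, and the spread between them may be technical.

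The libraries held 31876165 and 31672240 counts in intervals. All 6 markers fixed for motor neuron progenitors and neural progenitors had an interval over the TSS, with densities (normalised counts per kb, mean of the replicates) from 187 at Pax6 to 1452 at Nkx6-1, and 946 at Olig2. Of these 6 genes, 5 stood above the median promoter density of all protein-coding genes (402), and Pax6 did not. That median includes the genes without a TSS interval. Among protein-coding genes with a TSS interval the median was 884, and only Nkx6-1 and Olig2 stood above it. Sox2 (862), Nes (820), Olig1 (760) and Pax6 stood below it. In the other marker lists, 4 of 5 genes of newly born motor neurons had a TSS interval. So did 2 of 4 of p3 and floor plate cells, 3 of 4 of feeder fibroblasts and 3 of 4 matched multiciliated cell genes. For antigen presenting cells it was 2 of 4 and for pluripotent cells 1 of 3, against 61.5% of all protein-coding genes. In the order given, 3, 2, 0, 2, 0 and 0 genes of these lists stood above 402. The TSS of Pou5f1 and Nanog, which define pluripotent cells, had no interval. The values are averages over a sorted population, so that more cells with an open interval and a more open interval in each cell cannot be told apart.

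RFX proteins bind a DNA element called the X-box, a near-palindrome of paired arms, through a winged-helix domain that gives the family its name. Several of them, RFX2, RFX3 and RFX4 among them, control genes of cilia, the microtubule-based organelles on which vertebrate Shh signalling depends, and RFX5 is known instead for switching on MHC class II genes in the immune system. FOXJ1 is the forkhead factor that directs the making of motile cilia, and in the neural tube its gene is known as active in the floor plate. Accessibility at these genes does not measure their transcripts or proteins.

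Some of the member intervals carried X-box letters, and these are shown first because the X-box is the element that RFX proteins bind. The share of member intervals with a match was close to the background, as given after the sequences. The X-box searched was GTNNCC, then any 3 bases, then GNAAC, on either strand. Each run below is written 5′ to 3′ on the strand of its gene, from build mm10, with the match in capitals. The Rfx1 upstream run is chr8:84066383-84066442 (+), the Rfx1 intron run is chr8:84084007-84084066 (+), the Rfx3 intron run is chr19:27907182-27907241 (-) and the Rfx4 intron run is chr10:84772517-84772576 (+).
Rfx1 upstream: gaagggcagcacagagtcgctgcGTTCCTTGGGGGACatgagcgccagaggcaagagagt
Rfx1 intron: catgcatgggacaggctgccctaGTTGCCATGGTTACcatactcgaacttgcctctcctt
Rfx3 intron: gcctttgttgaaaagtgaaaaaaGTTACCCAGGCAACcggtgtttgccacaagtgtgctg
Rfx4 intron: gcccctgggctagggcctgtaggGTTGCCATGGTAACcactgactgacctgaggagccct

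The Rfx3 and Rfx4 matches lay in the central 300 bp of their intervals, 104 kb and 16.5 kb downstream of the TSS. Counted in that window, 2 of 72 member intervals (2.78%) held an X-box against 2.23% of all intervals, a share close to the background. The Rfx1 matches lay outside that window, and with the whole interval searched 4 member intervals (5.56%) held a match against 4.27% of all. The Rfx1 upstream match was 415 bp before the TSS in an exon of a noncoding antisense gene, and the Rfx1 intron match was 17.2 kb after it.

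X-boxes are known to tolerate other spacings between their arms. The search above allows 3 free bases between GTNNCC and GNAAC, which is a spacer of 2 bases between arms of 6, and with spacers of 0 to 3 bases 3 of the 8 Rfx2 intervals held a match in their centre. The other 2 member intervals with a match under this wider search were those of Rfx3 and Rfx4 already shown, which made 5 of 72 (6.94%) against 5.17% of all intervals. The densest distal Rfx2 interval, inside an Rfx2 intron, is given whole because it held both an X-box match and a forkhead motif, TGTTTAC, here on the other strand. The Rfx2 intron run is chr17:56810331-56810560 (-), and its capitals mark the X-box match and the forkhead motif.
Rfx2 intron: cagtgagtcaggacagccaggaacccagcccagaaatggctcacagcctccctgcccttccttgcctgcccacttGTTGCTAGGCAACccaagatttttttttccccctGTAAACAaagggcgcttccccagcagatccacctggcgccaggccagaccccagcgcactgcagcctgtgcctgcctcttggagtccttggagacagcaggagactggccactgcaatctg

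In this run the X-box match spanned bases 76 to 88 and the forkhead motif bases 110 to 116, with 21 bases between them. A second Rfx2 intron interval, 15.7 kb downstream of the TSS, held a pair of matches separated by 27 bases, shown in capitals in the run chr17:56814480-56814580 (-).
Rfx2 intron pair: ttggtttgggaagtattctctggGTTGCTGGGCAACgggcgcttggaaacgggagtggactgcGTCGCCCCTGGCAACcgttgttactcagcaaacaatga

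The third Rfx2 interval was the promoter, with the match GTTGCCGGGCGCAAC 97 bp upstream of the TSS. The arm GTTGCC alone was in the centre of 13 member intervals (18.1%, against 11.97% of all), and the forkhead motif was in 6 (8.33%, against 4.38%). The E-box CAGCTG was in 13 (18.1%, against 22.2%) and the GLI motif TGGGTGGTC, the letters that the transcription factors of the Shh pathway prefer, was in 0 (against 0.474%). A match is a description of letters and does not show that a factor was bound.

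Accessibility at the promoters was compared per length, in normalised counts per kb of interval, which is called density below. The Rfx1 promoter interval (chr8:84066239-84067489) had 4601 in replicate 1 and 4582 in replicate 2, a mean of 4591 ± 13.4 (SD, n = 2). It ranked 2 among 12218 TSS intervals and stood 5.38 times above their median of 855 ± 20.4. RFX1 is known as a broadly expressed member of the family.

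The Rfx2 promoter (chr17:56830596-56831628) had 1594 and 1552 in the replicates (1573 ± 29.7, SD, n = 2). RFX2 is known for its role in ciliogenesis and in male germ cells. The Rfx5 promoter (chr3:94953684-94954558) had 1282 and 1247 (1265 ± 24.2). The Foxj1 promoter (chr11:116335103-116336065) had 1238 and 1185 (1212 ± 37.4).

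The Rfx3 promoter (chr19:28010631-28012278) had 1140 and 1049 (1095 ± 64.1, SD, n = 2). RFX3 is required for cilia of the embryonic node and for the endocrine pancreas. The Rfx4 promoter (chr10:84754771-84757603) had 1006 and 963 (984 ± 30.3), and RFX4 is known from mouse mutants with defects of the dorsal midline of the brain. The Rfx7 promoter (chr9:72530279-72533143) had 911 and 918 (914 ± 4.90), the lowest of the 7 and still above the median of all TSS intervals.

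The order was thus Rfx1, Rfx2, Rfx5, Foxj1, Rfx3, Rfx4 and Rfx7, and it was the same in each replicate. Rfx1 and Rfx2 stood 3018 apart, and Rfx2 and Rfx5 stood 309 apart, which was 8.06 times their combined SD. Rfx5 and Foxj1 differed by 52.7, Foxj1 and Rfx3 by 117 and Rfx3 and Rfx4 by 110, which came to 1.18, 1.58 and 1.56 combined SDs. Rfx4 and Rfx7 differed by 70.2, or 2.29 combined SDs. The replicate values of neighbours did not overlap in any of these pairs, although with 2 replicates, and with the genes measured in the same libraries, the combined SD is only a rough measure of their separation.

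The order depended on the scale. Per whole interval, Rfx1 remained highest at 5744 ± 16.8 normalised counts (SD, n = 2), and Rfx4 (2789 ± 85.8) and Rfx7 (2619 ± 14.04) came next, because their promoter intervals were 2833 and 2865 bp long. Rfx3 (1804 ± 106), Rfx2 (1625 ± 30.6), Foxj1 (1167 ± 36.0) and Rfx5 (1107 ± 21.1) followed, against a median of 1110 for all TSS intervals. Rfx5 thus moved from the third place per length to the last place per interval.

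**Figure D1:**
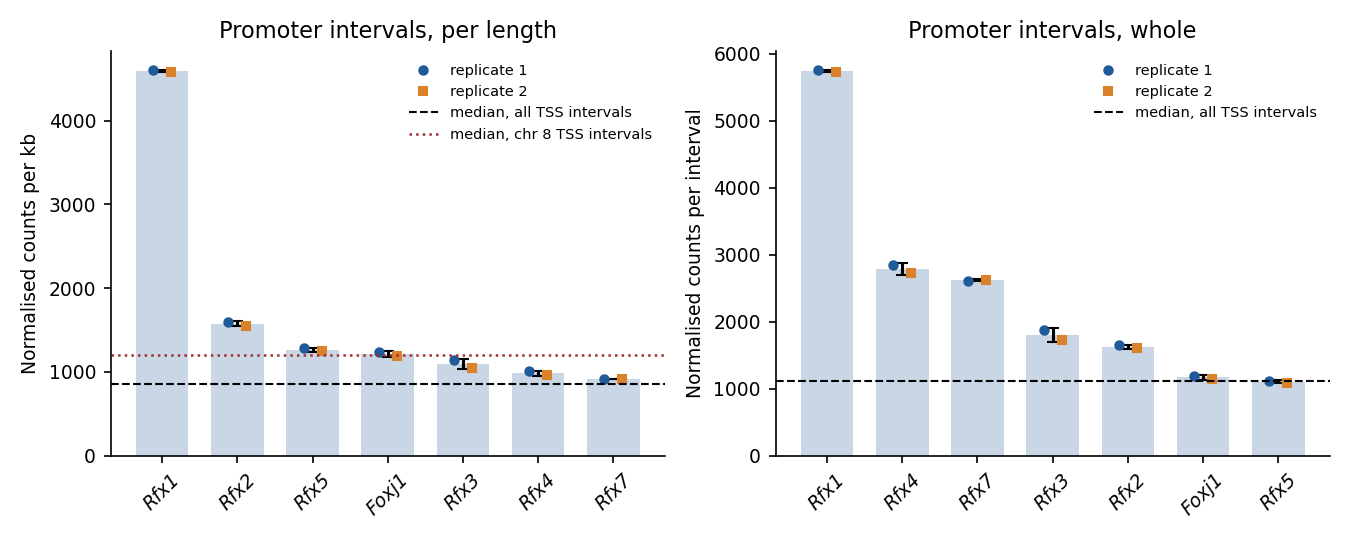
Promoter intervals of the 7 genes, as normalised counts per kb (left) and per whole interval (right); bars are means of 2 replicates, error bars are SDs, and circles and squares are replicates 1 and 2. Rfx1, at 4591 per kb, stands far above the other 6 genes, which lie between 914 and 1573 and above the dashed median of all TSS intervals (855), and the long Rfx4 and Rfx7 intervals move up in the right panel.

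The position of Rfx1 came with a feature of its chromosome. The median density of TSS intervals on chromosome 8 was 1.41 ± 0.00956 times that on the other autosomes (SD over 2 replicates), whereas the same ratio for distal intervals was 1.02. Against the 651 TSS intervals of chromosome 8 alone, Rfx1 ranked 2 and was 3.81 times their median. Of the 20 densest TSS intervals of the genome, 10 were on chromosome 8 (50.0%), which held 5.33% of all TSS intervals. The part of this chromosome-wide excess in the Rfx1 value was not tested.

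The 150 bases upstream of each start differed in their letters. They are shown for the 6 Rfx genes, with the CCAAT box, the GC box GGGCGG and GTTGCC in capitals on either strand. The sequences are those of RefSeq (GRCm38.p6, the same assembly as mm10), in which 6 of the 7 genes were matched. Positions are chr8:84066684-84066833 (+) for Rfx1, chr17:56831014-56831163 (-) for Rfx2, chr19:28011167-28011316 (-) for Rfx3, chr10:84755898-84756047 (+) for Rfx4, chr3:94953925-94954074 (+) for Rfx5 and chr9:72532090-72532239 (+) for Rfx7.
Rfx1 promoter: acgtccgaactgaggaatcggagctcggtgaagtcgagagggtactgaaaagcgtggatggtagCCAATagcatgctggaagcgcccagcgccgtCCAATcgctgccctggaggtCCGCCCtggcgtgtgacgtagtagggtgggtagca
Rfx2 promoter: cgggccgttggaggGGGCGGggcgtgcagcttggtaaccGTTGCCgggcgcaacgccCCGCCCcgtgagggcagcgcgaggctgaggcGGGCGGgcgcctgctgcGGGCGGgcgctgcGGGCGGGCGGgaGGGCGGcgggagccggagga
Rfx3 promoter: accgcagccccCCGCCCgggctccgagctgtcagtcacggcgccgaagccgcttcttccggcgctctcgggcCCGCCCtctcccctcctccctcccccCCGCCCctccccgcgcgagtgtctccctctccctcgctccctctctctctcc
Rfx4 promoter: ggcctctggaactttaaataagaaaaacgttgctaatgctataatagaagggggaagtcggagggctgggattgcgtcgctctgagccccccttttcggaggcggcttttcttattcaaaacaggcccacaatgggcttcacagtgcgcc
Rfx5 promoter: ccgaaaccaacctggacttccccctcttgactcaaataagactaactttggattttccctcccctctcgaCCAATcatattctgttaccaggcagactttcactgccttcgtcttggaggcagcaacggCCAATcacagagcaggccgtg
Rfx7 promoter: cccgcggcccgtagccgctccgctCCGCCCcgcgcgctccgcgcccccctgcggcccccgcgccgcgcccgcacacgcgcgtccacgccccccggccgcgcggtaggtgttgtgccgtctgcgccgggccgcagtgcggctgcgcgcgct

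Rfx1 and Rfx5 each had 2 CCAAT boxes, a motif held by 24.5% of 32851 promoter sequences cut to the same 150 bases. The Rfx2 sequence had 7 GC boxes, some overlapping, Rfx3 had 3, and Rfx1 and Rfx7 had 1 each, where 28.6% of all promoters had at least 1. GTTGCC was in the Rfx2 sequence only among the 6, and in 6.64% of all promoters. The Rfx4 sequence held none of these motifs. Its GC content was 51.3%, as was that of Rfx5, whereas Rfx7 had 85.3% and Rfx2 82.0%. Over whole promoter intervals the median GC content of the 7 genes was 64.9%, against 60.2% for all TSS intervals, and the CpG observed over expected ratio was 0.706 against 0.698.

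No promoter interval of the 7 genes covered the TSS of a second protein-coding gene. Within 1 kb of the Rfx1 start, the antisense gene C330011M18Rik starts 453 bp downstream, and within 1 kb of the Rfx7 start the noncoding gene 4930509E16Rik starts upstream on the other strand, at an offset of -382 bp. ATAC counts carry no strand, so these starts cannot be told apart from those of Rfx1 and Rfx7. The 7 genes had 41 distinct annotated transcript starts, of which 29 lay in the promoter interval, 0 in any other interval and 12 outside all intervals. For Rfx4, protein-coding starts 78.7 kb and 82.1 kb downstream of the first were among those outside. So were protein-coding starts 28.2 kb downstream for Rfx3 and 0.688 kb and 0.94 kb downstream for Rfx5.

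The genes differed in their number of intervals. Rfx3 had 30, more than 97.8% of protein-coding genes, and Rfx4 had 18, more than 93.3%. Rfx2 had 8 and Foxj1 had 6, Rfx5 had 4, and Rfx1 and Rfx7 had 3 each, the median of all protein-coding genes being 3. Of the 65 distal intervals, 32 lay in the body of their own gene, 16 in the body of another protein-coding gene and 17 outside protein-coding genes. By the annotation, 41 (63.1%) were in introns, against 44.0% of all distal intervals, and 16 (24.6%) were intergenic, against 39.2%. Nearness to a TSS does not show which gene an interval regulates.

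Across the 65 distal intervals the median density was 197 ± 9.97 (SD, n = 2), against 126 ± 2.05 for all 107284 distal intervals. The range was 28.0 to 900. A mean normalised count over 100 was reached by 35 of 72 member intervals (48.6%), where 38.8% of all intervals reached it. Among distal intervals it was reached by 28 of 65 (43.1%), against 32.4% of all distal intervals. The median promoter density of the members was 6.17 ± 0.503 times their median distal density, and the same ratio over all intervals was 6.79 ± 0.272.

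**Figure D2:**
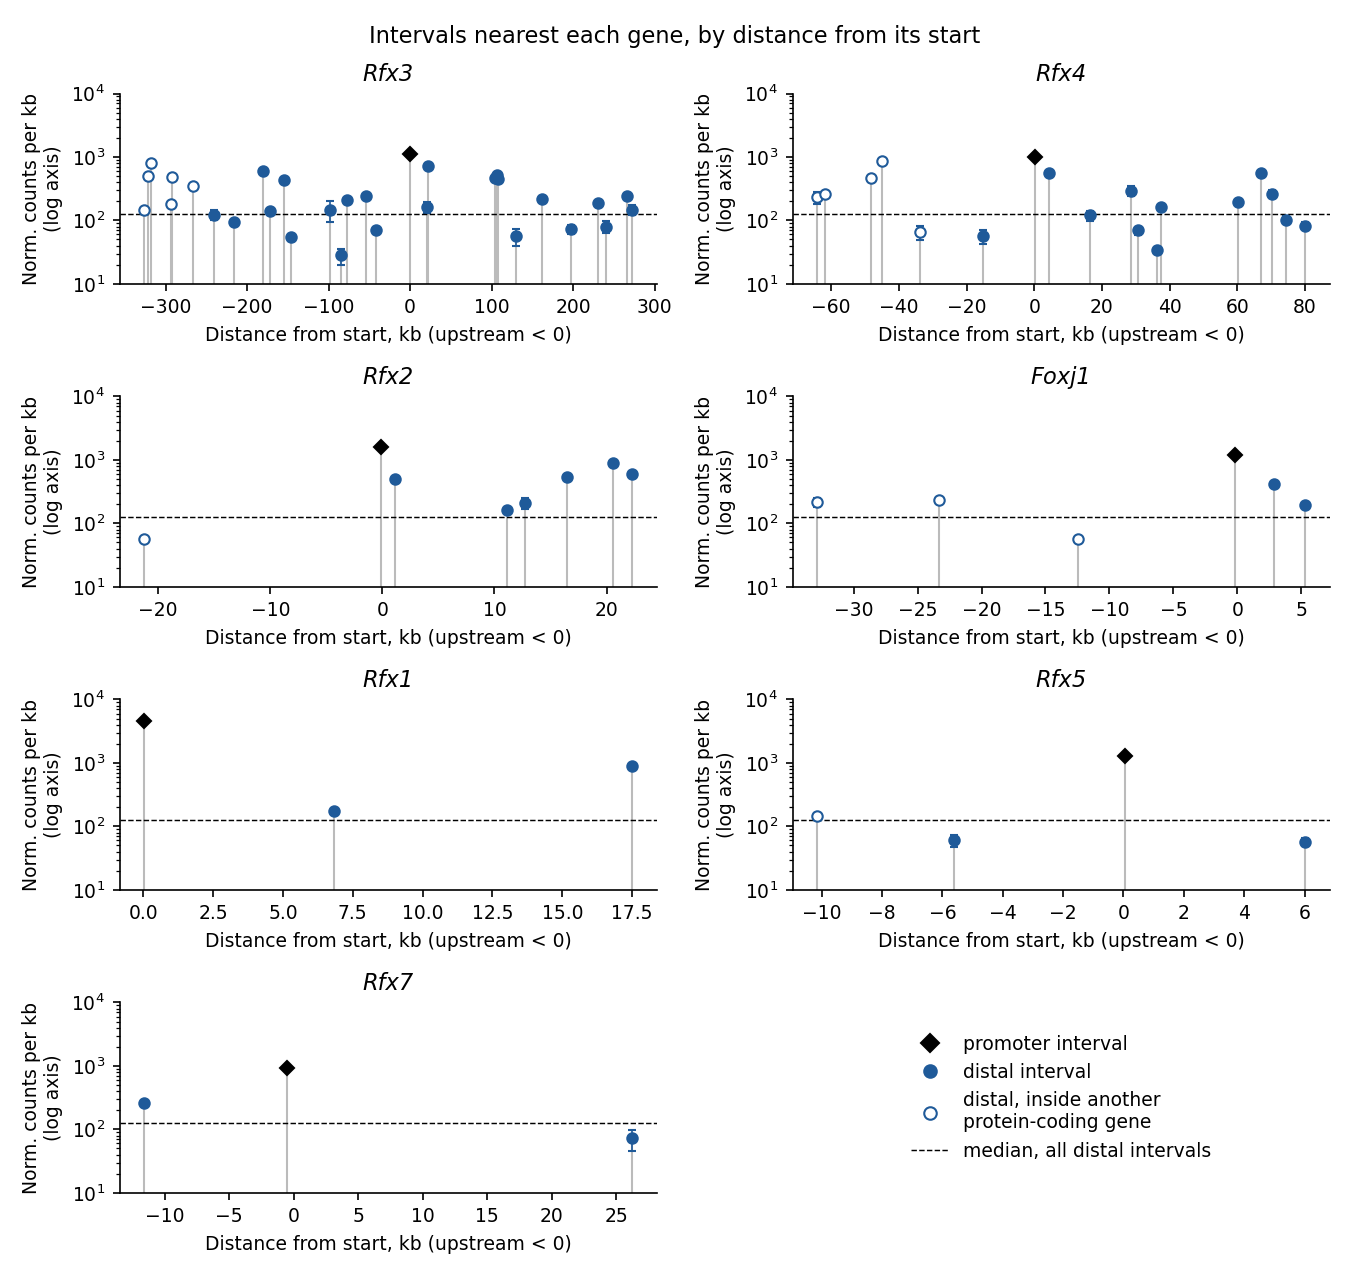
Density of each member interval (normalised counts per kb, log axis, mean of 2 replicates with SD) against the distance of its midpoint from the start of its gene in kb, negative upstream. Rfx3, Rfx4 and Foxj1 have intervals above the dashed median of all distal intervals (126) on both sides of the promoter, some inside a neighbouring gene (open circles). The distal intervals of Rfx5 and Rfx7 are few and stay below 300.

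Rfx3, a gene of 249 kb on chromosome 19, had 29 distal intervals spread up to 326 kb from its start. The densest, chr19:28328392-28329214, lay 317 kb upstream in an intron of Glis3, another transcription factor gene, and had 671 and 659 counts (density 808 ± 10.8, SD, n = 2). The next, chr19:27988767-27989212, lay in an Rfx3 intron 22.0 kb downstream of the start and had 349 and 303 counts (731 ± 73.4). The third, chr19:28191424-28192752, was intergenic, 180 kb upstream, with 813 and 764 counts (593 ± 26.4). These 3 intervals reached 73.8%, 66.8% and 54.2% of the density of the Rfx3 promoter.

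Within Rfx3, 3 intron intervals 104 kb to 108 kb downstream of the start stood close together. Their densities were 451 ± 6.67, 514 ± 22.0 and 468 ± 29.9 (SD, n = 2), and the last of these held the X-box shown above. In Glis3 lay 6 of the Rfx3 intervals, the densest included, with densities from 144 to 808. The promoter held 27.8% of the counts of all 30 intervals, the smallest promoter share among the 7 genes.

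Rfx4, a gene of 150 kb on chromosome 10, had 17 distal intervals. The densest, chr10:84710430-84711820, lay 44.2 kb upstream in an intron of Polr3b, which encodes a subunit of RNA polymerase III, with 1264 and 1161 counts (872 ± 52.9, SD, n = 2). This was close to the density of the Rfx4 promoter itself, which exceeded it 1.13 ± 0.0338 times. Inside Rfx4, chr10:84822418-84823799, 66.4 kb downstream, had 760 and 783 counts (558 ± 11.4), and chr10:84759976-84760819, 3.91 kb downstream, had 479 and 452 (552 ± 22.9). In Polr3b, 5 of the Rfx4 intervals were found, 1 of them with a density of 468 ± 57.6. The interval with the X-box shown above was weak, with 91 and 71 counts (120 ± 21.0).

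Rfx2, on chromosome 17, had 7 distal intervals, 6 of them inside the gene. The short interval shown whole above, chr17:56810331-56810560, had 207 and 205 counts over its 230 bp (896 ± 6.67, SD, n = 2). Its neighbour chr17:56808407-56808999 had 333 and 372 counts (594 ± 46.2), and chr17:56813863-56815288, with the pair of X-box matches, had 754 and 756 (529 ± 0.686). These 3 lay between 15.7 kb and 22.0 kb downstream of the start, and all stood above the median distal density.

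Foxj1 is a short gene of 4.70 kb on chromosome 11. Its densest distal interval, chr11:116332070-116333051, overlapped its own coding exon 2.35 kb downstream of the start, with 414 and 399 counts (414 ± 11.0 per kb, SD, n = 2). Next came chr11:116358010-116359463, over a coding exon of Rnf157 22.6 kb upstream, with 315 and 354 counts (230 ± 18.8), and chr11:116367975-116368546, in an Rnf157 intron, with 109 and 138 counts (216 ± 35.7). With the starts of protein-coding transcripts as TSS, 3 of the 6 intervals stayed nearest to Foxj1. The gene body interval stood above the other distal intervals, and the promoter held 52.7% of the counts of the 6 intervals. Among the p3 and floor plate markers, Foxa2 and Shh had no interval over the TSS but had 1 within 1 kb, and Nkx2-2 had a density of 484. The part of such cells in the Foxj1 values was not tested.

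Rfx1 had 2 distal intervals. The interval chr8:84083655-84085037, which overlapped coding exons 16.8 kb downstream and held an X-box, had 1246 and 1243 counts (900 ± 2.05, SD, n = 2), which the Rfx2 intron interval (896 ± 6.67) matched within the replicate spread. No other distal member interval was denser. Per whole interval the pair did not match, because the Rfx2 interval was 230 bp long and had 207 and 205 counts. The other, chr8:84073204-84074145, had 165 and 169 counts (177 ± 2.90). The promoter held 80.3% of the counts.

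Rfx5 and Rfx7 had their counts almost wholly at the promoter, with 89.3% and 95.3% of the locus. None of the 3 distal Rfx5 intervals had a mean count over 100, and their densities were 147 ± 18.0, 60.5 ± 13.2 and 56.9 ± 7.93 (SD, n = 2). Rfx7 had 114 and 120 counts at chr9:72520428-72520872, 11.4 kb upstream (263 ± 9.38), and 15 and 9 counts at chr9:72558409-72558575, 26.2 kb downstream (71.9 ± 25.4). RFX7 is known from immune cell metabolism and as a target of p53.

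The replicates were compared at every interval by an exact binomial test, two-sided, on the pair of counts. With Benjamini-Hochberg adjustment over all 119502 intervals and a limit of 0.01, 0 of the 72 member intervals were called, and 0% of all intervals were. At an unadjusted p under 0.05 there were 3 member intervals (4.17%) against 10029 of all (8.39%). The smallest adjusted p among the members was 0.444 by the exact binomial test, at the Rfx3 promoter, where replicate 2 was lower by 0.12 on the log2 scale. Among the 35 members with a mean over 100, the largest log2 difference was 0.34 and 0 differed over 1.5-fold. The SD of the log2 ratio in these was 0.12, against 0.14 for all such intervals. This test has 1 library on each side, so that its p-values set a difference against counting error alone, and it compares libraries and not conditions.

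**Figure D3:**
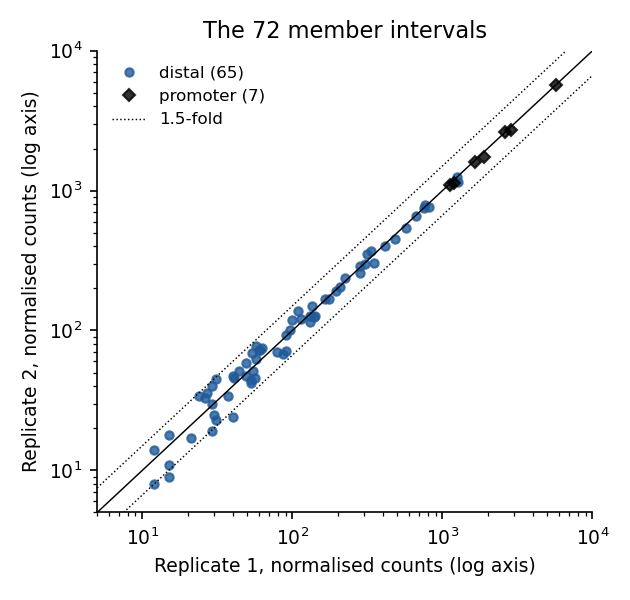
Normalised counts of the 72 member intervals in replicate 1 (x) and replicate 2 (y), both on log axes, with the line of equality and dotted lines at 1.5-fold; diamonds are promoters and circles are distal intervals. The intervals with over 100 counts all lie inside the dotted lines, and those outside them have fewer counts.

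The other RFX genes and the genes that RFX factors are known to regulate were read from lists of fixed membership. Promoter density is given per gene and is 0 where no interval covered the TSS, which says that no peak was called there and not that no fragments were found. Over all protein-coding genes the median was 402 ± 7.93, and 61.5% had a TSS interval. All 4 genes of the list of other RFX genes and RFX5 partners had one. Rfxank (998 ± 67.1, SD, n = 2) and Rfxap (966 ± 14.2), which encode the partners of RFX5, had higher densities than Rfx6 (284 ± 6.60), known from the pancreas, and Rfx8 (191 ± 36.3). The Rfxank interval also covered the TSS of Borcs8 and Mef2b.

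Genes of the MHC class II pathway, the known target of RFX5, had low promoter densities. A TSS interval was found at 5 of 8, the median was 62.6 ± 8.07, and 1 of 8 stood above the median of all genes. That gene was H2-DMa (1280 ± 40.6), whose interval also covered the TSS of Brd2, and the lowest with an interval was H2-Aa (61.6 ± 6.11). Ciita, the master regulator of the pathway, H2-Ab1 and H2-Oa had none, although H2-Oa had an interval within 1 kb (282). Among the 5 genes with a TSS interval the median was 91.2, against 884 for all such genes.

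Genes of intraflagellar transport and the primary cilium had the highest median among the lists, 1157 ± 15.6 (SD, n = 2), and 22 of 24 stood above the median of all genes. The median of all genes includes those without a TSS interval. Among genes with one, the median was 1182 in this list and 884 over all protein-coding genes. A TSS interval was found at 23 of 24, and the exception, Bbs2, had an interval within 1 kb (2885). The highest was Ift122 (4219 ± 85.5), a component of the transport complex that returns cargo from the cilium tip, and the lowest with an interval was Bbs1 (295 ± 9.68), of the complex that sorts membrane proteins into cilia. In 8 of the 24 genes the interval also covered the TSS of another protein-coding gene, as for Ift122 with Mbd4.

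Genes of the motile axoneme had a median of 322 ± 0.527 (SD, n = 2), below that of all genes, with a TSS interval at 15 of 18 matched and 8 of 18 above the median. Among the 15 with a TSS interval the median was 409, against 884 for all such genes. Dnaaf1 (1488 ± 14.5), needed to assemble dynein arms, was highest, although its interval was shared with Hsdl1, and Dnah5 (100 ± 16.5), an outer arm dynein, was lowest of those with an interval. Tekt1, Tekt2 and Tekt4, which encode proteins of axonemal microtubules, had none, and Tekt1 had an interval within 1 kb (172). Dnai1 and Dnai2 were not matched by name.

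Of the multiciliation regulators, which act with or above FOXJ1 in cells that build many cilia, 9 of 10 had a TSS interval, and the median was 492 ± 8.91 (SD, n = 2). Among the 9 with a TSS interval the median was 553, below the 884 of all such genes. Ccno (1374 ± 48.2) was highest and Trp73 (359 ± 23.5) was lowest of those with an interval. Gmnc, which starts the multiciliation programme, had none, and Mcidas had 553 ± 18.9. The Foxj1 promoter, at 1212, stood above the medians of both the motile axoneme list and the list of regulators. It stood below Dnaaf1 (1488) and Dnah9 (1336) of the former and below Ccno (1374), E2f5 (1316) and Tfdp1 (1298) of the latter. Among the 12218 TSS intervals it ranked 3457.

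**Figure D4:**
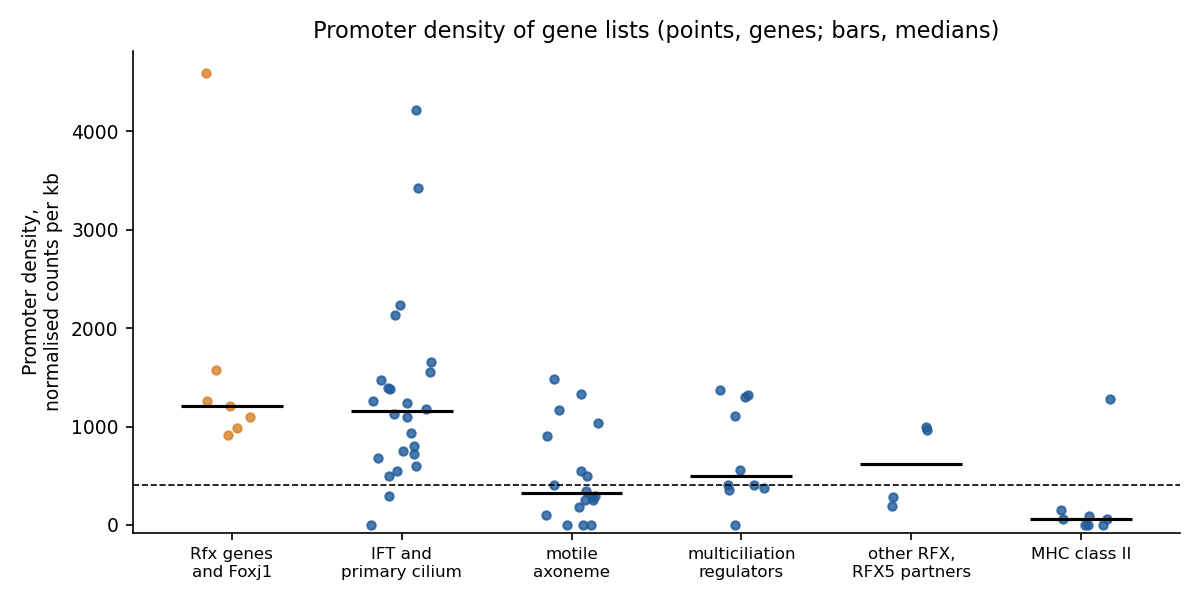
Promoter density (normalised counts per kb, mean of 2 replicates) of the 7 genes and of 5 gene lists; each point is a gene, bars are medians and the dashed line is the median of all protein-coding genes (402). The primary cilium list (median 1157) lies near the Rfx and Foxj1 promoters (median 1212), and 7 of 8 MHC class II genes lie below the dashed line.

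The X-box was also counted in the promoter intervals of these lists, a count chosen after the data were seen. In the central 300 bp it was found at 4 of 23 promoter intervals of the primary cilium list (17.4%), those of Arl6, Bbs1, Bbs4 and Ift57, against 2.11% of all TSS intervals. At 15 motile axoneme promoters it was found at Hydin and Spag6l (13.3%), and at 9 promoters of multiciliation regulators it was found at Deup1 (11.1%). None of the promoters of the other RFX genes or of MHC class II genes held it, nor did any of the 7 member promoters. The pattern requires both arms, so a site that keeps 1 arm is not counted. Its absence therefore does not show that a promoter lacks an RFX site. With spacers of 0 to 3 bases the shares were 17.4%, 26.7% and 22.2% for the 3 cilium lists, against 4.88% of all TSS intervals. Under the same wider search 1 of 5 MHC class II promoters (20.0%), that of H2-DMb1, and 1 of the 7 member promoters, that of Rfx2, also held a match. With so few promoters in each list, these shares rest on 1 to 4 intervals.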

How the data were processed

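ATAC-seq was performed by the authors on 2 libraries. The deposited values are raw counts per interval, which per the file headers came from featureCounts 2.0.1 (paired ends, each fragment assigned to all intervals holding at least 0.2 of its length), on mm10, over consensus MACS peaks of 5 libraries. The 3 columns of no sample were not used. Size factors from DESeq2 (1.42.0) scaled the libraries, and densities are per kb. Medians were taken per library, then averaged. A TSS was the 5′ end of a protein-coding gene record in GENCODE vM21, whose assembly is mm10. The nearest was found by edge distance. Libraries were compared by exact binomial tests, checked only on data simulated with counting error alone, which the test assumes. Alternatives covered normalisation (edgeR 4.0.16 TMM, total counts), TSS definition, filters, motif windows and leaving out replicates. Depth (31876165 and 31672240 counts, no molecular identifiers) limits weak intervals. Errors cover 2 libraries. The members and lists were chosen with earlier results of these data known. Named genes were the members, list extremes, up to 5 list genes without a TSS interval, and the 3 densest distal intervals per gene; others were chosen after their values were seen. Python 3.11.15, scipy 1.17.1 and pandas 2.3.3 were used.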

Additional observations from a re-analysis of the deposited data

How the results depend on the processing

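Of 39 alternatives tried, 29 left the value within its replicate spread or within 1.5 times the count. For some of the 29 no other outcome was possible. With a pair of replicates each value lies within the SD of their mean, so leaving out a replicate could not move a median or the ratio. Scaling could not move the promoter to distal ratio either, because it was taken within each library. The 10 alternatives that moved the value further were these. Per interval in place of per kb, the median promoter value of the members was 1804, the distal value 76.0 and their ratio 23.7. With intervals within 1 kb of the TSS counted as promoters, the median promoter density was 1153. With starts of protein-coding transcripts as TSS, a setting chosen after seeing the data, it was 1095 and the ratio to distal density was 5.58. Without Rfx1, also chosen after seeing the data, it was 1153. Without distal intervals in the body of another protein-coding gene, likewise chosen later, the distal median was 183. The X-box count was 4 with whole intervals and 5 with spacers of 0 to 3 bases. Leaving out either replicate gave promoter medians from 1185 to 1238, distal medians from 190 to 204, ratios from 5.82 to 6.53, and 34 to 35 intervals over 100. Transcript starts gave 76 member intervals, with 32 at Rfx3, 23 at Rfx4 and 3 in place of 6 at Foxj1. No paired analysis was possible because the design holds a single group, with no partner to block on. Intervals under 100 counts are limited by depth.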

Other observations

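The neighbourhood of Rfx1 was looked at after its promoter value was seen. Within 200 kb of the Rfx1 start, 14 TSS intervals had densities from 82.2 to 4591 normalised counts per kb, with a median of 1031. Of these, 3 ranked among the 20 densest of 12218. They were Rfx1 (4591 ± 13.4, SD, n = 2), Prkaca (4024 ± 24.5), the catalytic subunit of protein kinase A, and Asf1b (3728 ± 29.7), a histone chaperone. Podnl1 (82.2 ± 25.8), between Rfx1 and Zswim4 (3015 ± 13.0), was the lowest, and 6 of the 14 stood above the median of chromosome 8. The cause was not tested.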
